A study of Mus musculus with 18 samples.

Results

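The sites described here are 3203 autosomal CpG positions that lie in CpG-poor sequence and carried little or no methylation in wild-type mouse oocytes of the early antral follicle stage (EAF). A position was CpG-poor when at most 4 CpG positions, itself included, were listed by the 18 libraries in the 100 bp to its left and right. It became a member when at least 5 reads covered it in at least 2 EAF wild-type (WT) oocytes and its methylation level, the methylated reads over all reads, averaged 10% or less over them. The 3203 sites were 46.3% of the 6922 CpG-poor positions read well enough in EAF WT to be judged. Those 6922 were a small part of 379564 CpG-poor and 1160411 autosomal CpG positions listed in the deposited files.

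The 18 libraries were made from single oocytes by reduced representation bisulfite sequencing, which sequences the ends of MspI fragments after bisulfite has converted unmethylated cytosines. Groups were secondary follicle (SF) WT with 7 oocytes, SF knockout (KO) with 5, EAF WT with 4 and EAF KO with 2. WT females were Sall4fl/fl and KO females Sall4fl/fl;Zp3-Cre, in which the floxed alleles of the zinc finger factor gene Sall4 are removed by a Cre driven from a promoter active in growing oocytes. The ages P12.5 and P17.5 are listed for all samples without an age for each stage, so stage and age cannot be told apart. The labels do not say which oocytes came from 1 animal, and a group is therefore taken as 1 sample. No comparison between groups was tested, and every SD and range below describes oocytes, which may share an animal.

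In mammals, growing oocytes acquire DNA methylation after birth, mainly through DNMT3A with its cofactor DNMT3L. The methylation is laid down in large transcribed domains, while most CpG islands and many intergenic stretches stay free of it. A mature oocyte genome is therefore a mosaic of methylated and unmethylated domains, and a CpG-poor site can belong to either kind. The sites described here were low at the early antral stage in WT, and the question is what state they had at the earlier stage and in the knockout.

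EAF WT levels chose the sites and are given only as a description. Of the 3203 sites, 2853 (89.1%) had no methylated read in the EAF WT oocytes that covered them, 118 averaged above 0 and up to 5%, and 232 averaged above 5%. Coverage was thin, since 2785 sites were covered in exactly 2 EAF WT oocytes, 330 in 3 and 88 in all 4. A median of 21 EAF WT reads stood behind a site without a methylated read, and 0 of 21 reads allows a level of up to 14.3%, for counting error only. When the mean level of an EAF WT oocyte over many sites is given below, the sites were chosen again from the other 3 EAF WT oocytes. That restricts the comparison to sites covered in at least 3 EAF WT oocytes, 299 to 432 of them per oocyte. EAF WT values given below for single sites and regions come from oocytes that took part in choosing them, and are low by the rule.

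Reads summed over CpGs ran from 464501 to 6518646 per library. Outside EAF WT, an oocyte covered between 124 sites (SF WT replicate 3) and 1193 sites (SF KO replicate 2), and 414 sites were covered in EAF WT alone. SF KO libraries were deeper than SF WT libraries, with 625 to 1193 covered sites against 124 to 725 and a median of 15 to 25 reads per covered site against 8 to 17. At these sites SF KO replicate 1 stood apart from the other SF oocytes, and each SF KO value is given with and without it.

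The sites were low in most oocytes of every group. In SF WT the mean level over the covered sites was 6.15%, 6.41%, 4.22%, 6.80%, 8.50%, 11.3% and 6.03% in replicates 1 to 7. In SF KO it was 18.9%, 7.03%, 5.24%, 5.77% and 5.15% in replicates 1 to 5. SF KO replicate 1 was thus above every SF WT oocyte, while the other 4 SF KO oocytes lay inside the SF WT range. The group means were 7.06% ± 2.25 (SD, n = 7) in SF WT and 8.42% ± 5.91 (SD, n = 5) in SF KO, a KO minus WT difference of 1.36 points. Without SF KO replicate 1 the SF KO mean was 5.80% ± 0.866 (SD, n = 4) and the difference was -1.26 points. Both differences were smaller than the SD between SF WT oocytes.

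Both EAF KO oocytes were also low, at 4.97% in replicate 1 and 7.61% in replicate 2, a mean of 6.29% ± 1.86 (SD, n = 2). EAF WT oocytes, each scored on sites chosen without it, had 14.6%, 9.41%, 10.3% and 8.06%, a mean of 10.6% ± 2.83 (SD, n = 4). With each site weighted equally, every EAF KO value was below every EAF WT value, and the KO minus WT difference was -4.32 points. With sites weighted by reads the ranges overlapped, as EAF KO replicate 2 had 7.28% and EAF WT replicate 3 had 6.88%. The difference was then -2.68 points. Because the EAF WT values rest on a smaller set of sites, each EAF KO oocyte was also compared with each EAF WT oocyte on the sites covered in both. The KO oocyte was lower in 8 of 8 such pairs, over 118 to 259 sites, by 4.29 points on average, with single differences between -11.1 and -0.281 points. These 8 pairs share 2 KO and 4 WT oocytes and are not independent. Among sites covered in fewer than 10 of the 18 oocytes the difference was -2.86 points, and without chromosomes 10 to 13 it was -2.44 points. It was -1.35 points with at least 10 reads per CpG and -7.65 points without EAF WT replicate 4.

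Between the stages, EAF WT was 3.55 points above SF WT, with overlapping ranges. On sites covered in both oocytes of a pair, the SF WT oocyte was lower in 15 of 28 pairs and the mean difference shrank to 0.937 points. EAF KO was 2.12 points below SF KO, and 0.495 points above it without SF KO replicate 1.

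**Figure D1:**
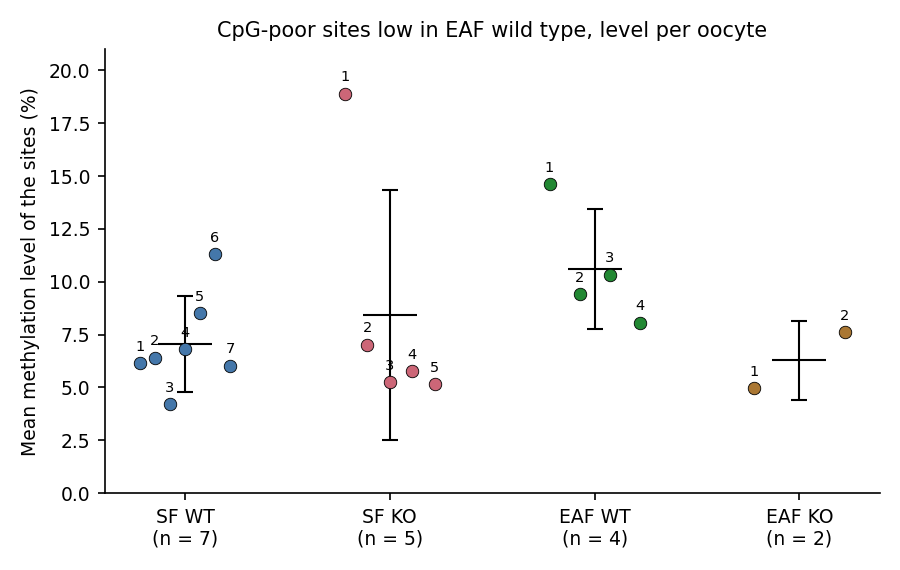
Mean methylation level, in percent, of the CpG-poor sites low in EAF WT, for each oocyte (points, labelled by replicate number) in the 4 groups, with the group mean and SD (bars). EAF WT oocytes were scored on sites chosen without them. SF KO replicate 1 at 18.9% lies above all other oocytes, whose levels run from 4.22% to 14.6%.

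A mean level near 6% came from a small number of methylated sites among many empty ones. In SF WT 79.6% ± 5.58 (SD, n = 7) of covered sites had no methylated read, 5.83% ± 2.886 stood between 20% and 80%, and 3.65% ± 1.41 stood at 80% or above. In SF KO without replicate 1 the same shares were 80.4% ± 2.77 (SD, n = 4), 5.60% ± 0.664 and 2.64% ± 0.586. The oocytes of both genotypes therefore had like proportions of empty, partly methylated and fully methylated sites. Of the sites of SF KO replicate 1, 58.1% were without a methylated read, 16.2% stood between 20% and 80%, and 10.8% at 80% or above. Including it, 4.28% ± 3.70 (SD, n = 5) of sites were at 80% or above in SF KO, 0.625 points above SF WT, and 1.01 points below SF WT when it was left out (-1.01).

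EAF KO and EAF WT had nearly equal shares at 80% or above, 3.74% ± 0.952 (SD, n = 2) and 3.68% ± 1.85 (SD, n = 4). They differed in the partly methylated sites, which made up 3.88% ± 2.83 in EAF KO and 13.1% ± 3.43 in EAF WT, with no overlap of the ranges. On sites covered in both oocytes of a pair the partly methylated share was 6.68% in EAF KO and 17.4% in EAF WT. The lower mean of EAF KO at these sites thus went with fewer partly methylated sites. The shares at 80% or above rest on unlike sets of sites, and were not compared on sites covered in both oocytes.

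**Figure D2:**
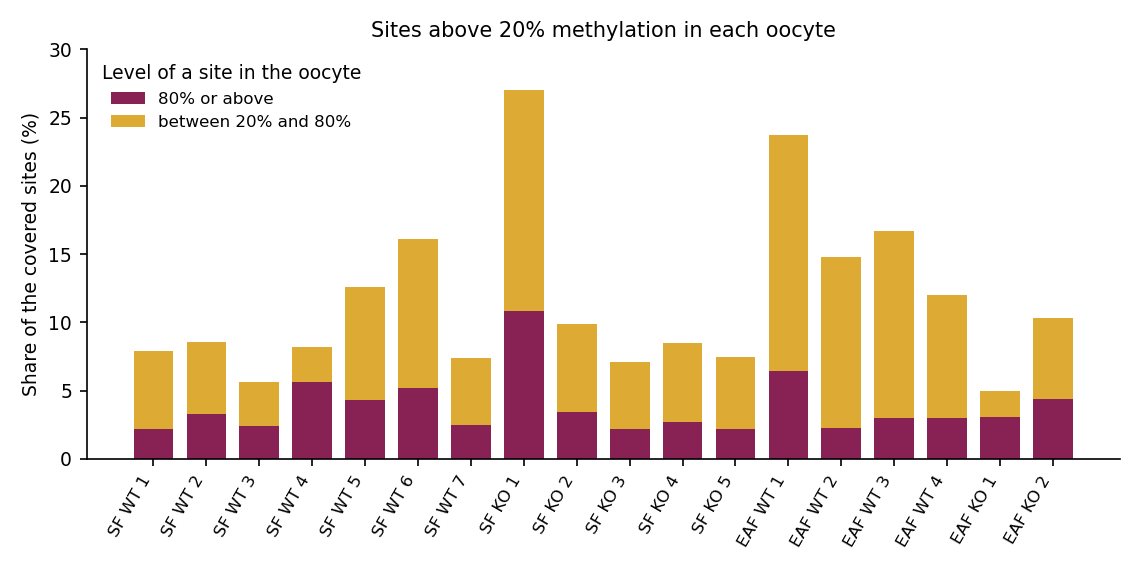
Share of the covered sites, in percent, that stood between 20% and 80% or at 80% or above in each of the 18 oocytes, stacked. SF KO replicate 1 has the tallest bar, with 16.2% and 10.8%, and the EAF WT oocytes have more partly methylated sites than the EAF KO oocytes.

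The low level in the knockout was compared with that of CpG classes chosen by the same coverage rule. At 1027 CpG-poor positions with an EAF WT mean of 80% or above, SF WT stood at 62.1% ± 17.54 (SD, n = 7) and SF KO at 16.9% ± 6.82 (SD, n = 5), or 14.5% ± 5.00 (SD, n = 4) without replicate 1. EAF KO stood there at 24.3% ± 13.4 (SD, n = 2). WT and KO therefore lay 45.2 points apart at the SF stage (-45.2), with no overlap, where the sites low in EAF WT differed by 1.36 points. Sites chosen as low in WT have little room to be lower in KO, so part of this contrast follows from the choice of classes. At 2692 CpG-poor positions between 10% and 80%, SF WT stood at 20.5% ± 4.21, SF KO at 15.2% ± 7.64, or 11.8% ± 0.476 without replicate 1, and EAF KO at 12.8% ± 2.86. The 3 CpG-poor classes stood at 5.80%, 11.8% and 14.5% in SF KO without replicate 1, at 6.29%, 12.8% and 24.3% in EAF KO, and at 7.06%, 20.5% and 62.1% in SF WT. The span between the classes was thus widest in SF WT among these groups. Because WT oocytes defined the classes, a wide span in SF WT is partly built in, and how much of it was not tested. In CpG-dense sequence, 4194 positions with at least 20 CpGs within 100 bp and an EAF WT mean of 10% or less stood at 0.792% ± 0.213 in SF WT, 1.12% ± 0.384 in SF KO and 0.482% ± 0.322 in EAF KO. Without replicate 1 SF KO stood at 1.05% ± 0.403. The CpG-poor sites low in EAF WT were thus above the CpG-dense ones in each of these groups. SF KO replicate 1 was the highest SF oocyte at the CpG-poor sites low in EAF WT. At the class of 80% or above it had 26.3%, below all SF WT oocytes, which ran from 39.4% to 90.3%. The other SF KO oocytes had 10.5% to 21.4% there. Between 10% and 80% it had 28.9%, against 11.3% to 12.3% in the other SF KO oocytes and 13.6% to 26.9% in SF WT. In the CpG-dense class it had 1.41%, inside the range of the other SF KO oocytes, 0.645% to 1.49%.

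**Figure D3:**
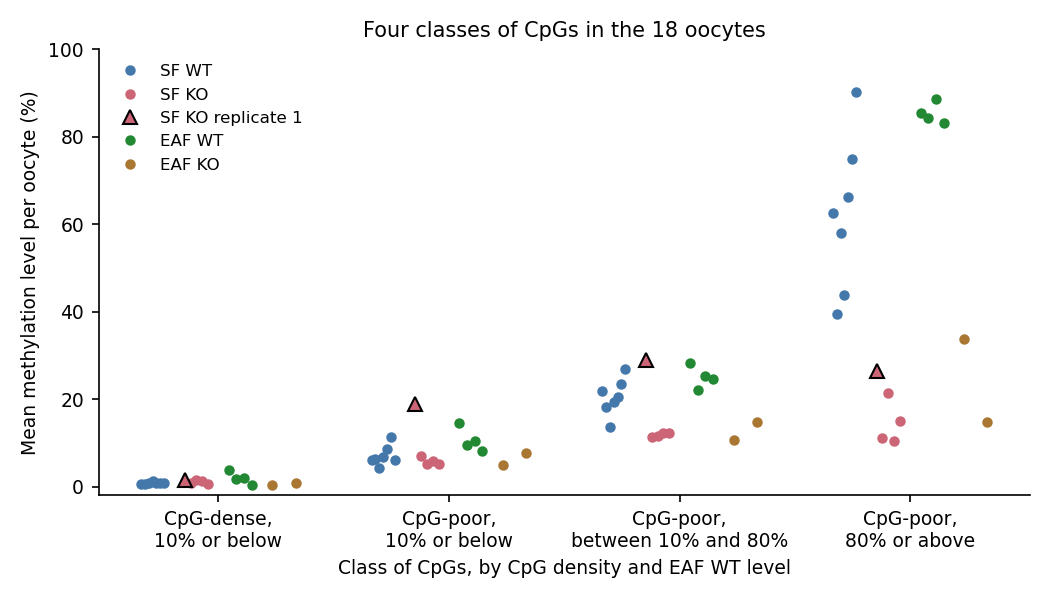
Mean methylation level per oocyte, in percent, in 4 classes of CpGs defined by CpG density and EAF WT level, with 1 point per oocyte and SF KO replicate 1 as a triangle. In the class of 80% or above all KO oocytes lie below all WT oocytes, while in the CpG-poor class of 10% or below the KO oocytes other than SF KO replicate 1 overlap SF WT.

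Single sites were compared where at least 2 SF KO and 2 SF WT oocytes covered them, which held for 501 of the 3203. The SF KO mean was at least 25 points above the SF WT mean at 42 sites (8.38%) and at least 25 points below it at 39 (7.78%). The background was 5.18% higher and 9.98% lower over all autosomal CpGs, and 8.86% higher and 20.9% lower over CpG-poor ones. The share of sites higher in SF KO was therefore near that of CpG-poor sequence, and the share lower was below it. The rule favours sites low in WT, which leaves fewer of them room to be lower in SF KO. Where at least 2 SF WT oocytes covered them, the sites averaged 7.86% in SF WT and CpG-poor CpGs 23.2%. The smaller share of lower sites is therefore not read as a trait of the sites. Without SF KO replicate 1, 24 of 443 sites (5.42%) were higher and 38 (8.58%) lower, with a background of 3.34% and 11.9% over all autosomal CpGs and 4.76% and 21.2% over CpG-poor ones. The median difference over the sites was 0 with and without that oocyte. A difference of at least 50 points was seen at 12 sites higher (2.40%) and 13 lower (2.59%), where all autosomal CpGs gave 1.66% and 5.21% and CpG-poor ones 3.58% and 13.9%. Without SF KO replicate 1 the numbers were 11 higher (2.48%) and 14 lower (3.16%), with 1.12% and 5.44% over all autosomal and 2.01% and 12.9% over CpG-poor CpGs.

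Few sites were mainly methylated in any group mean. In SF WT, 36 of the 743 sites covered in at least 2 oocytes (4.85%) averaged 50% or above, against 14.5% of all autosomal and 25.3% of CpG-poor CpGs. In SF KO it was 73 of 1366 sites (5.34%), against 10.4% and 11.5%. Without SF KO replicate 1 it was 37 of 1050 (3.52%), against 8.33% and 8.28%. In EAF KO it was 7 of the 218 sites covered in both oocytes (3.21%), against 8.27% and 6.08%. In each of these groups the share was below both backgrounds. The sites were chosen as low in EAF WT and the background CpGs were not. Lower shares are therefore partly built in and are not read as a trait of the sites.

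Most sites reached 50% in no other oocyte. Of 2789 sites covered in at least 1 of the 14 oocytes outside EAF WT, 2327 (83.4%) reached 50% in none, 355 in 1, 76 in 2 and 31 in 3 or more. Among the 597 sites covered in at least 5 of these oocytes, 397 (66.5%) reached 50% in none, 127 in 1, 45 in 2 and 28 in 3 or more. Of the 200 that reached 50%, 63.5% did so in 1 oocyte only. Among CpGs with the same coverage, 57.1% of CpG-poor and 59.9% of all autosomal ones reached 50% in none, and 53.4% and 36.7% of those that reached it did so in 1 oocyte only. Pairs of SF KO oocytes without replicate 1 shared 38 sites at 50% or above, 27.7% of the first oocyte's list and 33.9% of the second's. Of these 38, only 14 remained outside 4 regions of equal CpG spacing described below, or 12.7% and 16.5%. For pairs of SF WT oocytes the shared number was 24, or 23.5% and 22.6% (23.5% and 24.2% outside those regions). SF KO replicate 1 shared 21 such sites with the other SF KO oocytes, 8.17% of its own list and 18.3% of theirs, or 23.9% of theirs outside the 4 regions. These counts cover sites read in both oocytes of a pair, summed over the pairs, and the difference between them was not tested.

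The excess in SF KO replicate 1 was spread over most autosomes and was found away from CpG-dense sequence. Of 1163 covered sites in this oocyte, 6513 of 34182 reads were methylated, or 19.1% with an exact Clopper-Pearson 95% interval of 18.6% to 19.5%, which covers counting error only. It lay above all other SF oocytes on 16 of 19 autosomes, with levels between 4.52% and 32.8% per chromosome. At sites within 10 kb of a CpG-dense position it had 3.96%, inside the range of the other SF KO oocytes, 2.17% to 4.55%. Its level was 12.6% at 10 to 100 kb, where the others had 1.58% to 3.49%, and 22.5% beyond 100 kb, where the others had 6.03% to 8.62%. SF WT reached 10.7% and 11.2% in those last distance classes. At sites with no other CpG within 100 bp SF KO replicate 1 had 26.9%, against 3.18% to 8.30% in the other SF KO oocytes and up to 22.1% in SF WT. At sites with 4 CpGs within 100 bp it had 17.1%, against 6.46% to 10.7% in the other SF KO oocytes. When 1 of a pair of sites at most 100 bp apart was at 50% or above in this oocyte, the other was too for 68.6% of 105 such sites, against 14.3% over all sites in such pairs. In other oocytes too the share was above that over all sites in such pairs. It was 52.1% against 5.38% in the other SF KO oocytes, 29.2% against 5.70% in EAF KO and 10.5% against 3.49% in SF WT. The 52.1% includes the 4 regions of equal CpG spacing described below, where neighbouring sites reached 50% together in other SF KO oocytes. SF KO replicate 1 stayed below 50% there, and the shares without these regions were not computed. Sites in such pairs can be read by the same fragments, so they are not independent.

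**Figure D4:**
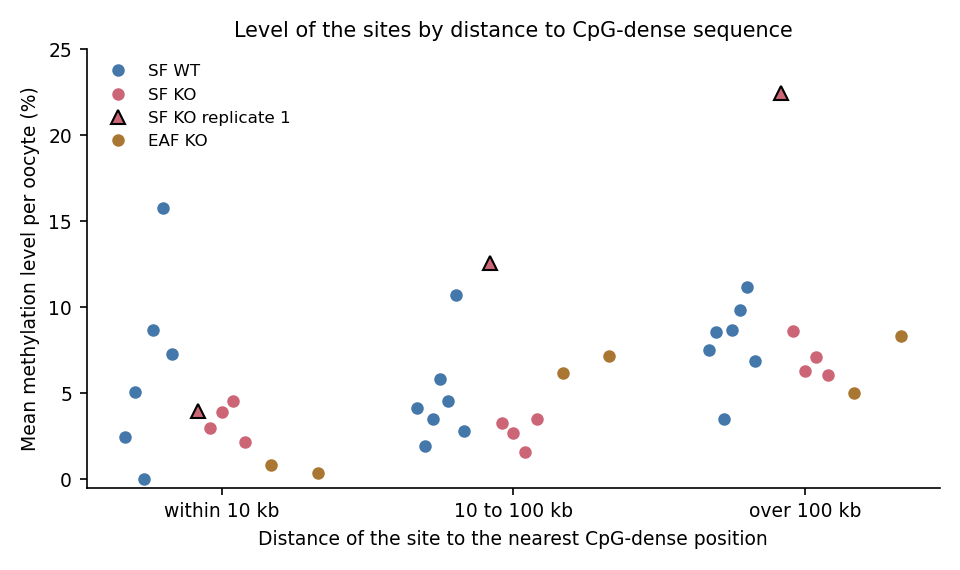
Mean methylation level per oocyte, in percent, of the sites grouped by distance to the nearest position with at least 20 CpGs within 100 bp, with 1 point per oocyte and at least 5 covered sites behind each point. SF KO replicate 1 (triangle) lies among the other SF KO oocytes within 10 kb and above all other oocytes shown beyond 100 kb, at 22.5%.

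The share of CpG-poor positions that were low in EAF WT also differed with distance and density. Within 2 kb of a CpG-dense position 80 of 96 judged positions (83.3%) were members, at 2 to 10 kb 143 of 263 (54.4%), at 10 to 100 kb 51.8% and beyond 100 kb 43.1%. By density, members were 32.7% of judged positions with no other CpG within 100 bp, 47.0% with 2 CpGs, 49.3% with 3 and 55.4% with 4. In EAF KO the sites within 10 kb of CpG-dense sequence were at 0.80% in replicate 1 and 0.380% in replicate 2, against 6.203% and 7.16% at 10 to 100 kb. The values within 10 kb rest on only 25 and 54 covered sites. SF WT showed no such gap, with 6.55% ± 5.52 (SD, n = 6) within 10 kb and 4.79% ± 2.91 (SD, n = 7) at 10 to 100 kb. Its values within 10 kb ran from 0% to 15.8%, the latter over 19 covered sites in replicate 6. SF KO had 3.51% ± 0.937 (SD, n = 5) within 10 kb and 4.73% ± 4.46 at 10 to 100 kb. Without replicate 1 SF KO had 3.39% ± 1.04 (SD, n = 4) and 2.76% ± 0.854, so it showed no such gap either.

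The sites that many oocytes shared were concentrated on a few chromosomes. Of 242 sites covered in at least 10 of the 18 oocytes, 121 lay on chromosomes 10 to 13, which held 25.7% of all members. CpG-poor positions covered in at least 10 oocytes numbered 33.2 per 1000 listed on chromosome 10 and 6.88 to 11.1 per 1000 on chromosomes 11, 12 and 13, against 0.505 to 1.87 on the other 15 autosomes. Chromosomes 10, 11, 12 and 13 are the first 4 in the order of the deposited files. Members made up 29.9% of judged CpG-poor positions on these 4 chromosomes and 57.1% on the other 15. How reads that match several places were assigned is not given in the sources used here, and its part in this concentration was not tested. Sites covered in at least 10 oocytes had 9.96% ± 2.36 (SD, n = 7) in SF WT and 11.3% ± 3.58 (SD, n = 4) in SF KO without replicate 1. Sites covered in fewer than 10 oocytes had 5.77% ± 2.51 and 4.19% ± 1.32 in the same groups. Levels were thus higher at the widely covered sites in both genotypes. The SF KO minus SF WT difference without replicate 1 had the opposite sign there. The widely covered sites include the 11 members of 4 regions described below, which were high in SF KO. At the chromosome 8 region SF KO without replicate 1 had 82.8% and SF WT 13.3%. The difference at widely covered sites without these regions was not computed. Without chromosomes 10 to 13 the SF KO minus SF WT difference was 2.37 points with all SF KO oocytes.

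Widely covered sites also shared their spacing with other places. Among members with 4 CpGs within 100 bp, 438 of 1017 (43.1%) had the exact distances between these CpGs, in either orientation, at another listed place more than 1 kb away, against 39.3% of all 99870 listed autosomal positions of that density. The share was 89.0% (105 of 118) for members covered in at least 10 oocytes, while 333 of the other 899 shared theirs. Some equal spacings arise by chance, and the sequences themselves were not compared because no mm9 sequence was used.

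Members within 500 bp of each other were chained into 2087 regions, of which 1289 held a single site and 7 held 5 or 6. None of the 7 was covered well enough in SF WT, SF KO and EAF KO to meet the rule for named regions. Outside EAF WT, whose levels chose them, 2 of the 7 had no value, and the other 5 had group means between 0% and 2.50%, the latter in EAF KO on chromosome 13. Regions of at least 2 members covered in at least 3 SF WT oocytes and 3 SF KO oocytes other than replicate 1 were therefore taken instead, after their values had been seen. There were 45. The SF KO mean without replicate 1 was at least 25 points above SF WT in 4, at least 25 points below in 0, and within 25 points in 41, with a median difference of 0.0191 points.

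The 4 regions with the higher SF KO level lie at chr8:88902824-88902828, chr3:8451839-8451880, chr1:142820577-142820618 and chr19:49006868-49006909 in mm9. Gene annotation of mm9 was not used here, so what lies there is not given. SF KO without replicate 1 had 82.8% ± 26.3 (SD, n = 3) at the chromosome 8 region, where SF WT had 13.3% ± 10.3 (SD, n = 3), a difference of 69.5 points. The other 3 differences were 59.4, 56.2 and 53.0 points, and with SF KO replicate 1 all 4 lay between 46.0 and 58.0. These were not taken as 4 separate results. In each region 3 CpGs stood at the same distances, the second 37 bp and the third 40 bp from the first, in 1 orientation on chromosomes 3 and 8 and in the opposite one on chromosomes 1 and 19. On chromosome 8 the first of them had 5 CpGs within 100 bp and was not a member. The methylated shares at the second CpG were also similar between the regions of an oocyte. At the second CpG of the chromosome 8 region, SF KO replicate 2 had 34 of 36 reads methylated, and in the regions of chromosomes 3, 1 and 19 it had 45 of 46, 34 of 35 and 31 of 32. In SF WT replicate 5 the same CpG had 25 of 53, 24 of 40, 22 of 36 and 18 of 30 reads methylated. The third CpG, 3 bp away, had no methylated read in any of the 4 regions in that oocyte.

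Summed over the 4 regions, the second CpG was at 36.8%, 96.6%, 60.8% and 97.8% in SF KO replicates 1, 2, 3 and 5. It was at 7.14%, 19.4% and 56.0% in SF WT replicates 1, 2 and 5, at 18.9% and 0% in EAF WT replicates 2 and 3, and at 93.8% in EAF KO replicate 2. The EAF WT oocytes took part in choosing these sites. The first CpG had another pattern, with 77.3% in SF KO replicate 3 and 70.8% in EAF KO replicate 2 but 1.35% in SF KO replicate 2 and 2.17% in SF KO replicate 5. The 4 regions thus resembled each other within these oocytes more closely at some CpGs than at others. The widest spread at the second CpG was 51.7% to 71.1%, in SF KO replicate 3, and at the third it was 11.8% to 40%, in EAF KO replicate 2. SF KO replicates 2 and 5 had like values at all 3 CpGs. The 11 members in these regions made up 10 of the 24 sites called higher in SF KO without replicate 1 and 8 of the 11 sites higher by at least 50 points. Elsewhere 14 sites (3.24%) were higher by at least 25 points, near the background of 3.34% over all autosomal CpGs and below the 4.76% of CpG-poor ones. With all SF KO oocytes 31 sites elsewhere (6.33%) were higher, against 5.18% and 8.86%. The 4 regions were picked for their high SF KO level, so leaving them out must lower the share, and the backgrounds were not treated alike.

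**Figure D5:**
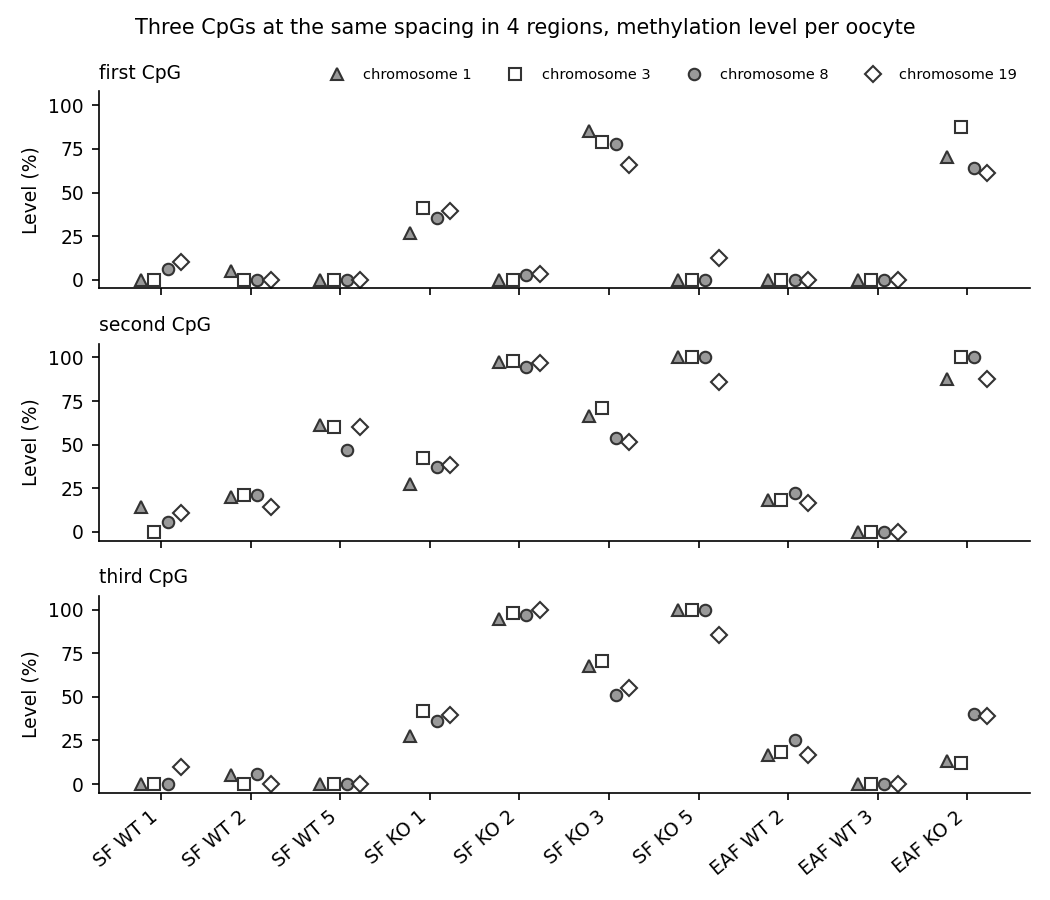
Methylation level, in percent, of 3 equally spaced CpGs in 4 regions (symbols, by chromosome) in the 10 oocytes that covered all of them. At the second CpG the symbols span 94.4% to 97.8% in SF KO replicate 2 and 51.7% to 71.1% in SF KO replicate 3, and all are at 0% in EAF WT replicate 3. At the third CpG those of EAF KO replicate 2 span 11.8% to 40%. The EAF WT oocytes took part in choosing the member sites.

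In EAF KO the 7 sites that averaged 50% or above differed between the oocytes. At 4 of them replicate 1 was fully methylated and replicate 2 nearly empty, as at chr1:99579657-99579658 with 20 of 20 and 0 of 22 methylated reads. Both oocytes were above 60% at 2 sites. At chr1:121641183-121641184 replicate 1 had 4 of 6 and replicate 2 had 7 of 8 methylated reads, and at chr4:23579753-23579754 they had 4 of 5 and 6 of 9. At the seventh, chr7:138630993-138630994, they had 4 of 5 and 3 of 14. SF WT and SF KO oocytes had at most 23.5% at the chr1:121641183-121641184 site, in SF KO replicate 5. With 5 to 14 reads per oocyte these last values are imprecise.

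The 20 sites covered in all 18 oocytes gave the most complete series. Apart from those on chromosome 6, they lay on chromosomes 10, 12 and 13, among the chromosomes where widely covered positions were concentrated. The part of reads that match several places in these values was not tested. A group of 4 was empty in nearly all oocytes. At chr10:84488847-84488848, read 4992 times in all, 17 of 18 oocytes had no methylated read and EAF WT replicate 2 had 0.488%. At chr10:84488870-84488871, with 5804 reads, 16 oocytes had none. At chr6:47618856-47618857 only SF KO replicate 1 had methylated reads, at 3.37%. Its neighbour at chr6:47618867-47618868 had none in 16 oocytes and 14.9% in SF KO replicate 1. The remaining 16 sites had group means from 4.49% to 24.8% in SF WT and SF KO, with the highest at chr10:103217171-103217172. That site had 18.0% in SF WT, 24.8% in SF KO, 7.66% in EAF WT and 22.6% in EAF KO. The EAF WT oocytes took part in choosing it, so their value is low by the rule.

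Just inside the threshold, 128 sites with an EAF WT mean above 8% and up to 10% stood at 12.9% ± 5.64 (SD, n = 7) in SF WT, 15.2% ± 5.31 (SD, n = 5) in SF KO, 13.4% ± 3.98 without replicate 1, and 9.26% ± 8.25 (SD, n = 2) in EAF KO. Just outside it, 75 CpG-poor positions above 10% and up to 12% stood at 17.9% ± 1.91, 14.1% ± 4.50, 12.3% ± 2.47 and 10.7% ± 5.09. Sites without any methylated EAF WT read had 5.40% ± 2.38 in SF WT, 7.14% ± 6.42 in SF KO, 4.31% ± 1.33 without replicate 1 and 5.23% ± 1.43 in EAF KO. In each of these groups the sites empty in EAF WT were thus lower on average than those near the threshold.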

How the data were processed

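Per the labels' protocols, DNA of single oocytes was cut with MspI, bisulfite converted and amplified. BSMAP 2.89 and build mm9 are named in the submitters' processing notes. The deposited tables give, per the file headers, the count of all reads and of methylated reads at each listed CpG over both strands, and the ratio of these counts as a fraction. Spiked lambda DNA was not analysed here.

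At least 5 reads made a CpG covered in an oocyte, and an oocyte's level was the mean over its covered sites, each weighted equally. Group values are means ± SD over oocytes. EAF WT oocytes were left out of the choice of sites when their mean levels were scored. EAF WT values at single sites and in regions were not treated so. Regions to be named were to hold at least 5 sites chained within 500 bp, with at least 3 covered in at least 2 oocytes each of SF WT, SF KO and EAF KO, and no region met this. Sites and lists were chosen with earlier results of these data known. The scoring was tested on simulated data. PCR copies are not independent molecules, so intervals cover counting error only. mm9 sequence and annotation were not used here, and coordinates were not converted. Alternatives changed the read minimum, thresholds, density, weighting and oocytes. Software was numpy 2.4.6, scipy 1.17.1, pandas 2.3.3 and matplotlib 3.10.9 under Python 3.11.15.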

Additional observations from a re-analysis of the deposited data

Results flagged for a closer look

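In 41 comparisons of the highest or lowest oocyte with the rest of its group, 11 stood out by the gap to its neighbour relative to the group's range (Dixon's 95% limit), and all 11 were SF KO replicate 1. For unrelated oocytes about 1 in 20 would stand out by chance, these oocytes may share animals, and the 11 values come from 1 oocyte and overlapping sites, so they are not separate results. At the CpG-poor sites low in EAF WT its mean level was 18.9%, with 73.0% of sites at 20% or below, 58.1% at 0, 16.2% between 20% and 80% and 10.8% at 80% or above. By density its level was 26.9% at sites with no other CpG within 100 bp, 20.4% with 2 CpGs and 15.8% with 3. By distance it was 12.6% at 10 to 100 kb from CpG-dense sequence and 22.5% beyond 100 kb. At CpG-poor positions between 10% and 80% in EAF WT it was 28.9%. The cause was not tested.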

How the results depend on the processing

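Alternatives give values, with no test behind any of them. The SF KO minus SF WT mean difference of 1.36 points moved by less than the pooled SD between oocytes, 4.12 points, in 30 of 30 alternatives. It changed sign in 2. That SD is widened by SF KO replicate 1, as the SF KO SD was 5.91 with it and 0.866 without it. The difference ran from -1.26 (without SF KO replicate 1) to 2.18 when 1 oocyte was left out. The same difference in the share at 80% or above (0.625 points) changed sign in 4 of 30 and ran from -1.01 to 1.50. EAF KO minus SF KO ran from -3.44 to 0.495. EAF KO minus EAF WT stayed negative in all 21 alternatives, but was -1.35 points with at least 10 reads per CpG, -7.23 with an EAF WT limit of 20% and -7.07 with each CpG thinned to 5 reads, where sites were chosen again. It ran from -7.65 (without EAF WT replicate 4) to -3.00 with an oocyte left out. EAF WT minus SF WT fell to 0.0181 points on sites covered in every oocyte compared and 0.937 on sites covered in both oocytes of a pair, and ran from 2.11 to 6.24 (without EAF WT replicate 4) with an oocyte left out. Of 501 sites, 42 were higher and 39 lower in SF KO. At 50 points these were 12 and 13 of 501. With 3 oocytes per group they were 21 and 6 of 234, with 10 reads 17 and 3 of 158, and with at most 2 CpGs within 100 bp 4 and 19 of 138, so the balance of higher and lower sites depended on these settings. Leaving out an oocyte gave a count of higher sites from 23 (without EAF WT replicate 2) to 46, with 24 without SF KO replicate 1, 26 without EAF WT replicate 3, 27 without EAF WT replicate 4 and 28 without EAF WT replicate 1.

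Replicate numbers name oocytes and are not known to pair them. A replicate block, the mean difference between oocytes of the same number, gave 2.00 points for SF KO minus SF WT, -5.72 for EAF KO minus EAF WT, 4.71 for EAF WT minus SF WT, -6.67 for EAF KO minus SF KO and 0.702 for the share at 80% or above. Leaving out chromosomes 10 to 13 or sites covered in at least 10 oocytes, and comparing oocytes pair by pair on shared sites, were chosen after the data had been seen.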

Other observations

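On the X chromosome the same rule chose 165 CpG-poor positions, which are not among the sites above. Their mean level was 8.33% ± 6.76 (SD, n = 7) in SF WT, 16.9% ± 6.66 (SD, n = 5) in SF KO, 14.7% ± 5.32 (SD, n = 4) without SF KO replicate 1 and 9.56% ± 4.22 (SD, n = 2) in EAF KO. SF KO ranged from 7.48% to 25.5% and SF WT from 0% to 15.8%, so the ranges overlapped. The values of 0% in SF WT replicates 3 and 4 rest on 5 covered positions each. EAF WT oocytes, each scored on positions chosen without it, had 16.9% ± 14.4 (SD, n = 4), with a range from 0% to 30.4%.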
